A study of Bos taurus with 32 samples.

Results

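Skeletal muscle was compared between the bulls and the heifers among dairy calves conceived by artificial insemination (AI). The comparison used 8 of the series' 32 libraries: 4 AI bulls, biopsied at 114 to 136 days of age, and 4 AI heifers, biopsied at 121 to 142 days. All calves were Bos taurus, carried by heifers and reared under similar conditions, and each gave 1 percutaneous punch biopsy of muscle, from which poly(A) RNA was sequenced. The 8 muscle libraries of calves that came from in vitro produced (IVP) embryos, frozen and thawed before transfer, 4 bulls and 4 heifers biopsied at 117 to 143 days, entered the same statistical fit and are described only beside the AI calves. The muscle sampled is not named in the labels. Members were the autosomal genes of 19 lists on fibre type, contraction, fuel use and protein turnover: 459 genes were listed, 457 were found in the table, 443 were autosomal, and 429 passed the filter on low counts. Of the 14 that did not pass, 13 were listed at 0 in all 16 muscle libraries, among them CASQ1, TPI1 and MYOZ2; since muscle uses these genes, they are described only as listed at 0.

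Total counts per AI library ran from 34977888 to 40368431. XIST, transcribed from the inactive X chromosome, was at 0 CPM (the count relative to the library total, as scaled by edgeR's TMM factors) in the 4 AI bulls and at 199 to 254 CPM in the 4 AI heifers, as the sexes are labelled. AI heifer 2 lay nearly at the mean of its group mates: its median squared distance from that mean was 0.0273 times that of counting noise, against 2.42 to 8.78 times in the other 15 muscle libraries. It nevertheless had counts in 504 genes that were at 0 in all 3 mates. AI bull 1 also stood apart, in that its deviations from its group mean ran with those of IVP bull 1 (correlation 0.85 over 14450 genes, given as a description). Means ± SD below are therefore over 4 bulls and heifers 1, 3 and 4, and every leading count is given also without heifer 2. Log2 differences, their standard errors (SE) and adjusted p values come from the fit with heifer 2 included, unless marked otherwise. That fit counts heifer 2 as a separate animal. The SE was 0.298 with it and 0.317 without it for FBXO32, and 0.201 and 0.232 for SLN.

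Muscle fibres fall into slow types, which contract with the myosin MYH7 and burn fuel in mitochondria, and fast types, which contract with MYH2, MYH1 or MYH4 and lean more on glycogen and glycolysis. Fibre mass is set by the balance of protein synthesis, driven by insulin and IGF1 through the kinase AKT1, and protein breakdown by the proteasome and by autophagy. FOXO transcription factors, which AKT1 holds out of the nucleus, are known to switch on the muscle ubiquitin ligases FBXO32 and TRIM63 and several autophagy genes, as happens in fasting and disuse.

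Across the autosomes 1414 of 14450 tested genes (9.79%) had an adjusted p below 0.05 by edgeR's quasi-likelihood test and are termed called here. Of these, 720 (4.98%) were higher and 694 (4.80%) lower in bulls, and the median log2 difference of all autosomal genes was 0.01. Among the 429 tested members 79 (18.4%) were called, 54 higher and 25 lower in bulls, with a median log2 difference of 0.17. Without heifer 2 the autosomal count was 500 of 14766 (3.39%; 249 or 1.69% higher and 251 or 1.70% lower), and 32 members remained called, 18 higher and 14 lower. All 32 were also called with every library included, and such genes are termed called in both fits. Leaving out bull 1 as well gave 560 autosomal genes and 37 members, and the AI libraries fitted alone without heifer 2 gave 195 and 15. Heifer 4 mattered as much as heifer 2: without it alone, 482 autosomal genes and 29 members were called. In a biopsy, fewer fibres of a type and less RNA per fibre cannot be told apart.

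**Figure D1:**
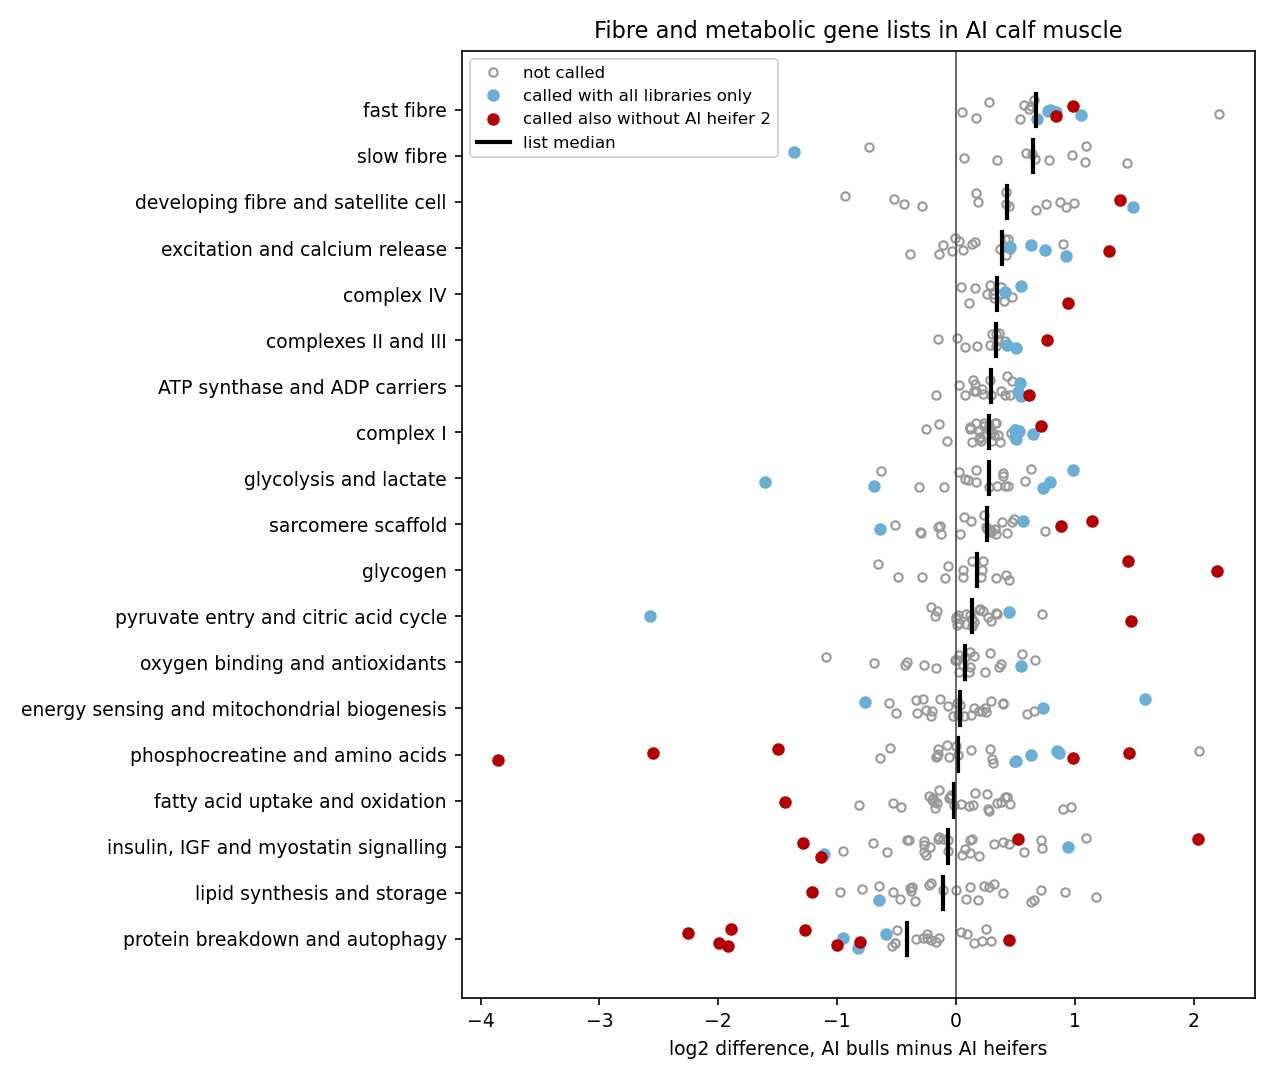
Log2 difference (AI bulls minus AI heifers, all libraries, horizontal axis) of every tested member, 1 point per gene, by list; open points were not called, blue ones were called with all libraries only, red ones also without heifer 2, and the bar is the list median. Called members of the protein breakdown list lie mostly left of 0 (10 lower, 1 higher), while those of the 4 oxidative phosphorylation lists lie right of it (17 higher, 0 lower).

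The skeletal muscle markers ACTA1 and CKM were abundant in every library, as the tissue is labelled, and markers of other cells were present at lower levels. For the counts below, 4.98% of all autosomal genes were higher and 4.80% lower in bulls with all libraries. Without heifer 2 these shares were 1.69% and 1.70%. Of 13 endothelial markers 3 were higher in bulls (CDH5, TEK and VWF; VWF alone without heifer 2), and the list's summed level was 222 to 355 CPM in bulls against 198 to 209 CPM in heifers 1, 3 and 4. Of 15 fibroblast and matrix markers COL5A1 and SPARC were higher (COL5A1 alone without heifer 2), with sums of 1306 to 2586 CPM in bulls and 1078 to 1415 CPM in heifers. Of 8 nerve and Schwann cell markers 2 were higher with all libraries only, with sums of 103 to 175 CPM in bulls and 104 to 111 CPM in heifers. CD163 was lower in bulls among 11 macrophage markers tested with all libraries only (adjusted p = 0.0807 without heifer 2), and AIF1 was at 0. NOTCH3 was higher among 8 smooth muscle and pericyte markers and DNAJB1 among 12 heat shock genes, both of them also without heifer 2. Among 10 immediate early genes IER2 was higher and MYC lower with all libraries only (adjusted p = 0.0968 and 0.0613 without heifer 2). The median log2 difference of these 10 was 1.03. With all libraries 5 of them had an unadjusted p below 0.05 by edgeR and DESeq2 called 5. Of the 27 tested markers of adipocytes, lymphocytes, red cells, epidermis and hepatocytes edgeR called none, 3 had an unadjusted p below 0.05 and DESeq2 called 1. LEP, HBA1, SLC4A1, KRT1, LORICRIN and DSG1 were at 0 in all 8 libraries. Skeletal muscle markers summed to 84282 to 114783 CPM in bulls and 57997 to 68117 CPM in heifers. Of these 10 markers 2, ACTA1 and CKM, were higher and 0 lower, and ACTA1 alone was called without heifer 2. NEB, DES and MYF6 had log2 differences of -0.14, -0.13 and -0.52, not called, and the rest had differences above 0. The 10 most abundant genes took 26.7 to 29.9% of counts in bulls and 21.6 to 23.7% in heifers 1, 3 and 4. In the IVP calves the 10 most abundant genes took 26.8 to 31% in bulls and 27.7 to 31.4% in heifers. The part of these differences in the results below was not tested.

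The list of protein breakdown and autophagy held the most genes lower in bulls. Of its 28 tested members 10 were lower and 1 higher (39.3% called, against 9.79% of autosomal genes). Without heifer 2, where 3.39% of autosomal genes were called, the counts were 7 and 1. All 4 bulls lay below heifers 1, 3 and 4 in 11 of the 28, against 8.54% of autosomal genes, and the median log2 difference was -0.41. FBXO32 (atrogin-1), the substrate-binding part of a muscle ubiquitin ligase, was at 120.2, 114, 76.7 and 73.6 CPM in bulls 1 to 4, against 383, 234 and 552 CPM in heifers 1, 3 and 4 and 366 CPM in heifer 2. Every bull was below every heifer, the means being 96.1 ± 24.4 CPM (SD, n = 4) and 389.8 ± 159 CPM (SD, n = 3). The log2 difference was -1.997 ± 0.30 (SE; adjusted p = 0.00133, and 0.00594 without heifer 2). TRIM63 (MuRF1), the ligase that marks myofibrillar proteins for degradation, stood at 214, 237, 144 and 237 CPM in the bulls and 702, 383 and 1246 CPM in the same 3 heifers, with 757 CPM in heifer 2. The groups were again separate, and the log2 difference was -1.89 ± 0.27 (SE; adjusted p = 0.000907, 0.00477 without heifer 2).

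FBXO30, a further F-box protein of muscle wasting, was at 43.6, 35.9, 47.3 and 30.3 CPM in bulls and 141, 68.2 and 361 CPM in heifers 1, 3 and 4 (heifer 2 at 179 CPM), a log2 difference of -2.25 ± 0.35 (SE; adjusted p = 0.00174, 0.00662 without heifer 2). GABARAPL1, which coats the forming autophagosome, was at 36.9, 35.8, 30.8 and 28.0 CPM in bulls and 101, 57.3 and 219 CPM in those heifers (heifer 2 at 120.0 CPM), a log2 difference of -1.92 ± 0.28 (SE; adjusted p = 0.00132, 0.00594 without heifer 2). Both genes varied more among heifers than among bulls, and heifer 3 was the nearest to the bulls in each. The other 3 members lower in both fits fall outside the rule for naming genes and were picked after their values were seen. These are BNIP3 and BNIP3L, receptors for the autophagy of mitochondria, with log2 differences of -1.27 and -0.81, and MAP1LC3B, another autophagosome protein, with -0.998 (adjusted p = 0.0143, 0.0205 and 0.0135 without heifer 2). BNIP3 was at 210.4, 245, 184 and 136 CPM in bulls and 491, 284 and 637 CPM in heifers 1, 3 and 4, a gap that no bull bridged. CBLB, a ubiquitin ligase, and SQSTM1, an autophagy receptor, were lower with all libraries in the fit but not without heifer 2 (adjusted p = 0.0626 and 0.0701). Calpain 1 (CAPN1), a calcium-dependent protease that works outside the proteasome, went the other way: 98.9, 87.4, 83.8 and 96.2 CPM in bulls and 66.1, 64.5 and 70.6 CPM in heifers, a log2 difference of 0.44 ± 0.10 (SE; adjusted p = 0.0126, 0.036 without heifer 2). The lysosomal proteases of the list did not pass the test, with log2 differences of -0.25 for CTSB, -0.15 for CTSD and -0.17 for CTSL.

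The insulin, IGF and myostatin list held called genes in both directions, 3 higher and 3 lower of 34 tested (17.6%, against 9.79% of autosomal genes). Without heifer 2 the counts were 2 and 2, with 3.39% of autosomal genes called. IRS2, the adaptor that carries the insulin signal from its receptor, was at 40.1, 42.9, 24.5 and 48.8 CPM in bulls and 92.1, 54.7 and 141 CPM in heifers 1, 3 and 4 (heifer 2 at 94.1 CPM). No bull reached the lowest heifer, and the log2 difference was -1.29 ± 0.25 (SE; adjusted p = 0.00522, 0.0198 without heifer 2). FOXO3 was at 139, 93.7, 84.6 and 107 CPM in bulls and 224, 129.6 and 351 CPM in the heifers. Bull 1 lay above heifer 3 here, so the groups overlapped, with a log2 difference of -1.14 ± 0.23 (SE; adjusted p = 0.00717, 0.0218 without heifer 2). Its relative FOXO1 did not pass (log2 difference -0.95, adjusted p = 0.0663). AKT1 was higher in bulls, at 78.7, 75.2, 77.2 and 94.1 CPM against 54.7, 62.4 and 51.9 CPM, a log2 difference of 0.52 ± 0.11 (SE; adjusted p = 0.00928, 0.0356 without heifer 2). IGFBP5, an IGF-binding protein made by muscle cells, was at 457, 239, 299.8 and 325 CPM in bulls and 106, 80.6 and 55.5 CPM in heifers 1, 3 and 4, with heifer 2 at 79.9 CPM. The lowest bull was above the highest heifer, and the log2 difference was 2.04 ± 0.25 (SE; adjusted p = 0.000431, 0.00309 without heifer 2). The growth factor IGF1 was at 4.49, 3.25, 2.06 and 3.76 CPM in bulls and 1.93, 2.24 and 2.71 CPM in heifers, with an adjusted p of 0.235. Myostatin (MSTN), which restrains muscle growth, was at 61.0, 16.5, 32.3 and 24.5 CPM in bulls and 26.5, 15.3 and 6.09 CPM in heifers, with overlapping ranges and an adjusted p of 0.145. The binding proteins IGFBP4, higher, and IGFBP3, lower, were called with all libraries only (log2 differences 0.94 and -1.11).

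A few fuel-choice genes were lower in bulls. Of tested genes, 3.45% were called in the fatty acid list, 7.41% in the lipid synthesis list and 12% in the pyruvate list. The share over all autosomal genes was 9.79%. UCP3, a mitochondrial carrier that rises with fat use, was at 282, 606, 320.3 and 324 CPM in bulls and 1116, 658 and 1401 CPM in heifers 1, 3 and 4 (heifer 2 at 989.9 CPM), a log2 difference of -1.44 ± 0.35 (SE; adjusted p = 0.017, 0.0493 without heifer 2). Bull 2 was close to heifer 3, and the call was lost without heifer 4 (adjusted p = 0.0733) or without bull 4 (adjusted p = 0.0566). UCP3 was the 1 called gene of 29 in fatty acid uptake and oxidation (3.45%), a list whose median log2 difference was -0.02. CPT1B, the gate for fatty acid entry to mitochondria, was at 68.5, 134, 75.1 and 127 CPM in bulls and 117, 96.5 and 141 CPM in heifers (adjusted p = 0.559). PDK4, the kinase that closes pyruvate dehydrogenase, varied widely within both groups, at 157, 353, 37.1 and 57.4 CPM in bulls and 734, 377 and 1619 CPM in heifers, and the highest bull lay just below the lowest heifer. Its log2 difference of -2.57 ± 0.76 (SE) passed with all libraries (adjusted p = 0.0483) and not without heifer 2 (adjusted p = 0.11). LPIN1, a phosphatidate phosphatase of triglyceride synthesis, was at 224, 187, 164 and 196 CPM in bulls and 531, 258 and 554 CPM in heifers (heifer 2 at 439 CPM), a log2 difference of -1.21 ± 0.20 (SE; adjusted p = 0.00227, 0.00903 without heifer 2). With ABHD5, an activator of fat breakdown that was called only with all libraries (log2 difference -0.65), it made up the 2 called genes of 27 in lipid synthesis and storage (7.41%).

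Amino acid handling gave the largest difference of any member. SLC7A8 (LAT2), a transporter of large neutral amino acids, was at 28.9, 32.4, 52.0 and 29.3 CPM in bulls and 484, 177 and 925 CPM in heifers 1, 3 and 4, with 480.1 CPM in heifer 2. The 3 heifers spanned a wide range, yet the lowest was well above the highest bull, and the log2 difference was -3.86 ± 0.44 (SE; adjusted p = 0.000375, 0.00151 without heifer 2). AMPD3, an AMP deaminase, was at 5.24, 10.2, 3.14 and 14.5 CPM in bulls and 43.3, 33.9 and 68.9 CPM in heifers (heifer 2 at 47.7 CPM), a log2 difference of -2.55 ± 0.51 (SE; adjusted p = 0.00725, 0.0264 without heifer 2). Its fast-fibre counterpart AMPD1 ran the other way (log2 difference 0.63, adjusted p = 0.0475, 0.103 without heifer 2). GLUL, glutamine synthetase, picked after its values were seen, was at 696, 486, 476 and 395 CPM in bulls and 1519.7, 487 and 2419.6 CPM in heifers (adjusted p = 0.0144, 0.0376 without heifer 2), and heifer 3 lay within the bulls' range.

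Heifers 1, 3 and 4 kept the same order over these genes. In all 14 members lower in bulls in both fits, heifer 3 was the lowest of the 3 and heifer 4 the highest. The same order held in 21 of the 25 members lower with all libraries (84%), in 60.4% of all autosomal genes lower in bulls and in 24.9% of all autosomal genes tested. Heifer 4 was the heifer farthest from the bulls in these genes, and among the 18 members higher in bulls in both fits it was the lowest heifer in 14. It was the lowest in 195 of the 429 members tested and in 4579 of the 14450 autosomal genes tested. Heifer 4 was the youngest of the heifers, at 121 days, and heifer 3 was 130 days old at biopsy. Heifer 1, which lay between them in the 14 genes, was the oldest, at 142 days. With age as a covariate 74 members were called, 47 higher and 27 lower.

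**Figure D2:**
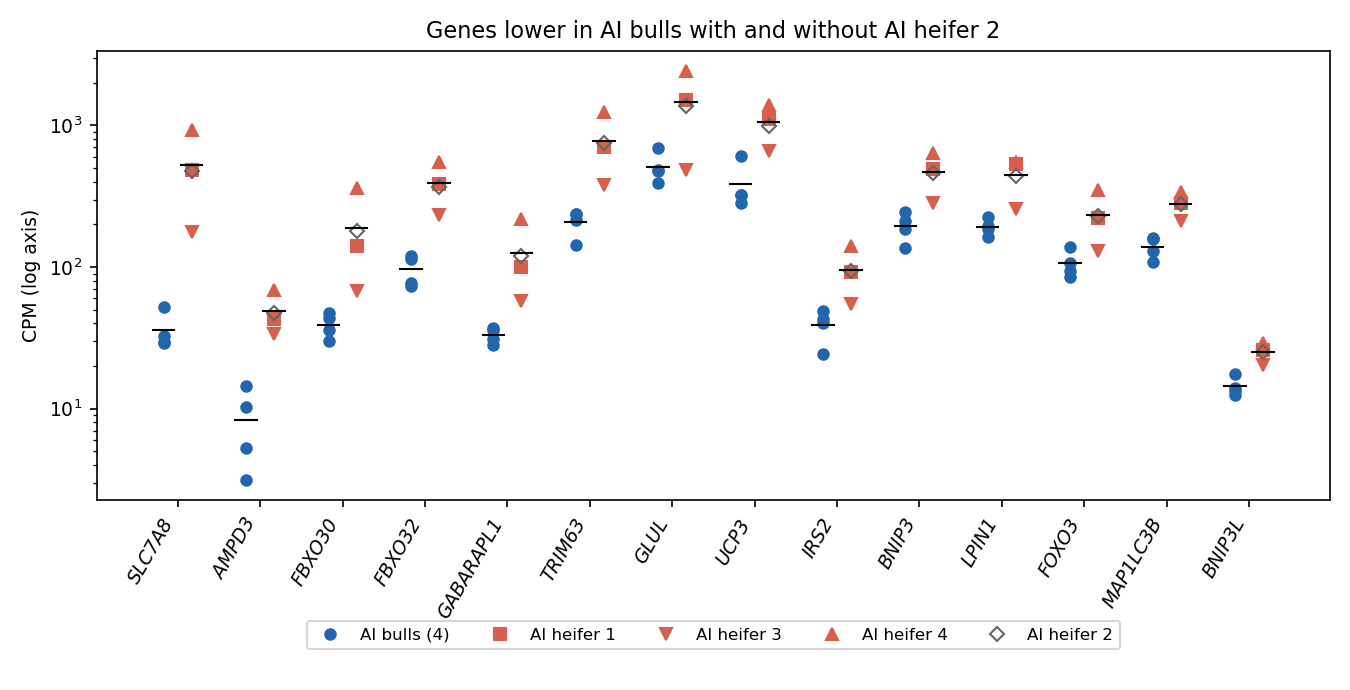
CPM (log axis) of the 14 members lower in AI bulls in both fits, 1 point per animal: blue for bulls, red for heifers 1, 3 and 4, open diamonds for heifer 2, and lines for the means of 4 bulls and 3 heifers. In each of the 14 genes called in both fits heifer 4 is the highest and heifer 3 the lowest of the 3 independent heifers.

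Of the contractile lists, that of fast fibres held the most genes higher in bulls. Of its 16 tested members 7 were higher and none lower (43.8%, against 9.79% of autosomal genes). Without heifer 2, where 3.39% of autosomal genes were called, 2 were higher and none lower. The 4 bulls lay above the 3 heifers in 8 (background 8.03%), and all 16 differences were above 0, with a median log2 difference of 0.67. MYOZ3, an anchor protein of the fast-fibre Z-disc, was at 704, 460.0, 647 and 488 CPM in bulls and 324, 325 and 221 CPM in heifers 1, 3 and 4 (heifer 2 at 294 CPM). No heifer reached the lowest bull, and the log2 difference was 0.98 ± 0.18 (SE; adjusted p = 0.00378, 0.0144 without heifer 2). MYBPC2, the fast myosin-binding protein C, was at 9268, 7012, 7599 and 11018 CPM in bulls and 5695, 5153 and 3719 CPM in heifers, a log2 difference of 0.84 ± 0.19 (SE; adjusted p = 0.0127, 0.0413 without heifer 2). Its adjusted p was 0.0503 without heifer 4. The fast myosin heavy chains themselves did not pass. MYH1 was at 123727, 72464, 58698 and 100636 CPM in bulls and 67329, 50837 and 50195 CPM in heifers (adjusted p = 0.0874), and MYH2 at 13065, 20092, 4932 and 8159.8 CPM and 8433, 7543 and 7303 CPM (adjusted p = 0.365). The myosin genes are close copies, so reads may be split among them.

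The slow fibre list had a median of 0.65, and 0 of 12 tested members were higher and 1 lower (8.33%, against 9.79% of autosomal genes). None was called without heifer 2, where 3 had an unadjusted p below 0.05 and DESeq2 called none. MYH7, the slow myosin, was at 7385, 3852, 1529.9 and 11254 CPM in bulls and 3582, 2261 and 2699 CPM in heifers, so that bull 3 lay below all 3 heifers and bulls 1 and 4 far above them (adjusted p = 0.213). TNNT1, the slow troponin T, was at 1698, 992, 1133 and 4695 CPM in bulls and 905, 699 and 769 CPM in heifers (adjusted p = 0.0874). Both slow genes peaked in bull 4. The called gene was CSRP3, a Z-disc strain sensor, at 175, 291, 97.0 and 181 CPM in bulls and 291, 894 and 254 CPM in heifers, a log2 difference of -1.36 ± 0.39 (SE; adjusted p = 0.0399, 0.1 without heifer 2). Heifer 3 had the highest CSRP3 level by far and bull 2 overlapped with the heifers.

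Among 25 sarcomere scaffold genes 3 were higher and 1 lower in bulls (16%, against 9.79% of autosomal genes). Without heifer 2 the counts were 2 and 0, with 3.39% of autosomal genes called. ACTA1, the actin of the skeletal muscle thin filament, was at 55233, 47028, 39038 and 35116 CPM in bulls and 24870.2, 15211 and 20059.8 CPM in heifers 1, 3 and 4, with 19862 CPM in heifer 2. The lowest bull exceeded the highest heifer, and the log2 difference was 1.14 ± 0.23 (SE; adjusted p = 0.00635, 0.024 without heifer 2). UNC45B, the chaperone that folds myosin heads, was at 424, 482, 339 and 524 CPM in bulls and 295, 207 and 218 CPM in heifers, a log2 difference of 0.88 ± 0.17 (SE; adjusted p = 0.00478, 0.0188 without heifer 2). The thin-filament protein LMOD2 was lower with all libraries only (log2 difference -0.64). In excitation and calcium release 5 of 20 genes were higher and none lower (25%, against 9.79% of autosomal genes). Without heifer 2, where 3.39% of autosomal genes were called, 1 gene of the list remained called. That gene was sarcolipin (SLN), a small inhibitor of the calcium pump, at 2250.1, 2449.8, 1760.1 and 1959.7 CPM in bulls and 1001, 1002 and 578 CPM in heifers (heifer 2 at 864 CPM). Its groups were far apart relative to their spread, with means of 2105 ± 305 CPM (SD, n = 4) and 860.4 ± 244 CPM (SD, n = 3) and a log2 difference of 1.29 ± 0.20 (SE; adjusted p = 0.00156, 0.00851 without heifer 2). The calcium channel subunits CACNB1 and CACNG1, the chloride channel CLCN1 and the junction protein JPH2 were higher with all libraries only, by 0.63, 0.75, 0.45 and 0.92 on the log2 scale.

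The list of developing fibres and satellite cells had 2 genes higher and none lower of 16 (12.5%, against 9.79% of autosomal genes). Both encode subunits of the acetylcholine receptor of the nerve-muscle junction. CHRNA1 was at 111, 95.3, 134 and 57.1 CPM in bulls and 42.0, 42.6 and 30.6 CPM in heifers 1, 3 and 4, a log2 difference of 1.38 ± 0.28 (SE; adjusted p = 0.00651, 0.0264 without heifer 2). Bull 4 was the lowest bull and still above every heifer. CHRND was called with all libraries (log2 difference 1.49, adjusted p = 0.0298) and not without heifer 2 (adjusted p = 0.0902). The embryonic myosin MYH3 was at 16.3, 18.1, 17.2 and 37.1 CPM in bulls and 11.9, 16.6 and 10.7 CPM in heifers, with bull 4 alone well above the rest (adjusted p = 0.0894). The myogenic factors MYOD1 and MYOG had log2 differences of 0.99 and 0.92 (adjusted p = 0.0747 and 0.0549).

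**Figure D3:**
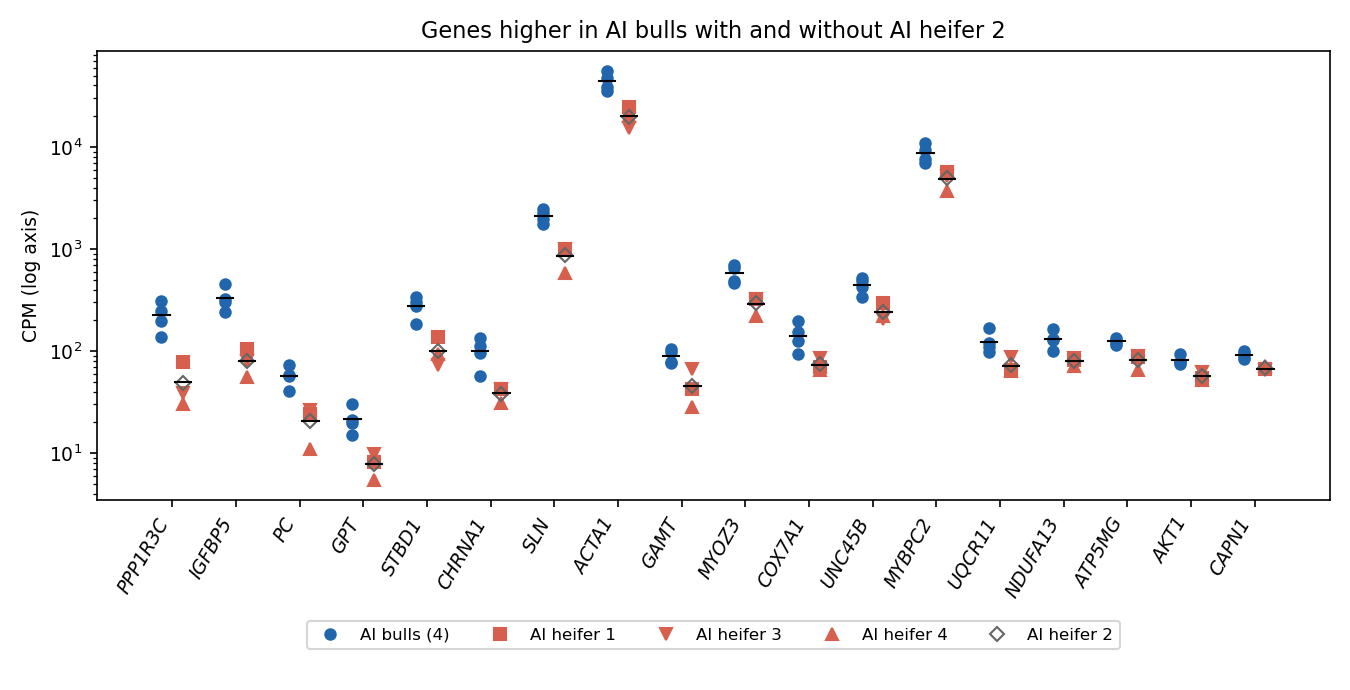
CPM (log axis) of the 18 members higher in AI bulls in both fits, 1 point per animal: blue for bulls, red for heifers 1, 3 and 4, open diamonds for heifer 2, and lines for the means of 4 bulls and 3 heifers. For IGFBP5, SLN and ACTA1 the 4 bulls lie above every heifer.

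Where nuclear genes of oxidative phosphorylation were called, they were higher in bulls. Of the 84 autosomal members of complexes I to IV, ATP synthase and the ADP carriers 83 were tested, 17 were higher and none lower, and 78 of the 83 differences were above 0, with a median log2 difference of 0.30. The called differences ran from 0.41 to 0.94, and the 4 bulls lay above the 3 heifers in 31 of the 83, against 8.03% of autosomal genes. By complex, 7 of 35 were higher in complex I (20%), 3 of 14 in complexes II and III (21.4%), 3 of 14 in complex IV (21.4%) and 4 of 20 in ATP synthase and carriers (20%), against 4.98% of autosomal genes. Without heifer 2, where 1.69% of autosomal genes were higher, the count was 4, 1 in each list, and none was lower in either fit. The 4 were NDUFA13, a complex I subunit, UQCR11 of complex III, COX7A1, the muscle form of a cytochrome oxidase subunit, and ATP5MG of the ATP synthase. COX7A1 was at 93.5, 195, 125 and 154 CPM in bulls and 70.1, 85.0 and 65.3 CPM in heifers 1, 3 and 4 (heifer 2 at 74.4 CPM), a log2 difference of 0.94 ± 0.19 (SE; adjusted p = 0.00742, 0.0304 without heifer 2). ATP5MG was at 121, 133, 114 and 128 CPM in bulls and 88.2, 89.4 and 65.2 CPM in heifers, a log2 difference of 0.61 ± 0.12 (SE; adjusted p = 0.00575, 0.0253 without heifer 2). UQCR11 and NDUFA13 had log2 differences of 0.77 ± 0.17 and 0.71 ± 0.16 (SE; adjusted p = 0.0101 and 0.012, 0.0385 and 0.0424 without heifer 2). NDUFA13 did not pass without heifer 4 (adjusted p = 0.053). Heifer 4 was the lowest of the 3 heifers in 15 of the 17 called genes and heifer 3 the highest in 16. Over the 14450 autosomal genes tested these counts were 4579 and 5121, and over the 429 members tested 195 and 168. PPARGC1A, a coactivator that drives mitochondrial biogenesis, was at 14.8, 15.2, 18.9 and 6.61 CPM in bulls and 7.75, 13.1 and 5.81 CPM in heifers (adjusted p = 0.247), and TFAM, which packages mitochondrial DNA, had a log2 difference of -0.14 (adjusted p = 0.683).

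In the glycogen list 2 of 16 tested genes were called (12.5%, against 9.79% of autosomal genes). Both were higher in bulls, with and without heifer 2. PPP1R3C, which brings a phosphatase to glycogen and so favours its synthesis, was at 308, 248, 198 and 138 CPM in bulls and 78.1, 39.0 and 30.3 CPM in heifers 1, 3 and 4, with 48.1 CPM in heifer 2. Bulls and heifers were separate, and the log2 difference was 2.19 ± 0.30 (SE; adjusted p = 0.000907, 0.00594 without heifer 2). STBD1, which tethers glycogen to membranes for its autophagy, was at 336, 185, 275 and 299 CPM in bulls and 136, 72.9 and 92.8 CPM in heifers, a log2 difference of 1.44 ± 0.22 (SE; adjusted p = 0.00147, 0.00662 without heifer 2). The enzymes of the pathway did not pass: muscle phosphorylase PYGM was at 13135, 9256, 10531 and 11147 CPM in bulls and 10017, 8752 and 9316 CPM in heifers (adjusted p = 0.355), and the synthase GYS1 had a log2 difference of -0.07 (adjusted p = 0.865).

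In glycolysis and lactate handling 3 of 21 genes were higher and 2 lower with all libraries (23.8%, against 9.79% of autosomal genes). No gene was called without heifer 2 by edgeR, where 7 had an unadjusted p below 0.05 and DESeq2 called 5. The muscle mutase PGAM2 was at 2698, 2139, 1947 and 3737 CPM in bulls and 1464, 1483 and 1025 CPM in heifers (log2 difference 0.99 ± 0.23 SE; adjusted p = 0.0155, 0.0501 without heifer 2). The enolase ENO1 was at 145, 111, 96.9 and 163 CPM in bulls and 69.0, 84.4 and 69.5 CPM in heifers (adjusted p = 0.0171, 0.0523 without heifer 2), and the muscle enolase ENO3 had a log2 difference of 0.73 (adjusted p = 0.0808 without heifer 2). Lower were PFKFB3, which makes the allosteric activator of phosphofructokinase, and GPD2, a shuttle enzyme for cytosolic NADH, with log2 differences of -1.60 and -0.69 (adjusted p = 0.0718 and 0.0547 without heifer 2). Lactate dehydrogenase A (LDHA) was at 3506, 2114, 2824 and 2115 CPM in bulls and 1908, 2403 and 1533 CPM in heifers (adjusted p = 0.224).

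Of 25 genes of pyruvate entry and the citric acid cycle 2 were higher and 1, PDK4, lower (12%, against 9.79% of autosomal genes). Pyruvate carboxylase (PC) was the 1 called without heifer 2. PC, which refills the cycle with oxaloacetate, was at 57.1, 40.9, 73.3 and 57.7 CPM in bulls and 24.3, 26.6 and 11.0 CPM in heifers 1, 3 and 4, and heifer 2 was at 20.5 CPM. Each bull was above each heifer, with a log2 difference of 1.47 ± 0.25 (SE; adjusted p = 0.00277, 0.0126 without heifer 2). The malate dehydrogenase MDH2 was the other gene higher with all libraries (log2 difference 0.45, adjusted p = 0.0453, 0.106 without heifer 2). Citrate synthase (CS), often taken as a measure of mitochondrial content, was at 316, 222, 258 and 141 CPM in bulls and 244, 192 and 202 CPM in heifers. Bull 1 was the highest and bull 4 the lowest of all 8 animals (adjusted p = 0.746).

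The phosphocreatine and amino acid list had 6 genes higher and 3 lower of 25 (36%, against 9.79% of autosomal genes), the lower ones being SLC7A8, AMPD3 and GLUL. Without heifer 2 the counts were 2 and 3, with 3.39% of autosomal genes called. GAMT, which completes creatine, was at 76.5, 78.4, 97.7 and 106 CPM in bulls and 42.0, 66.0 and 27.9 CPM in heifers, a log2 difference of 0.98 ± 0.21 (SE; adjusted p = 0.0104, 0.0376 without heifer 2). GPT, the aminotransferase that makes alanine from pyruvate, was at 19.5, 15.1, 21.0 and 30.3 CPM in bulls and 8.20, 9.89 and 5.46 CPM in heifers, a log2 difference of 1.45 ± 0.25 (SE; adjusted p = 0.00252, 0.0122 without heifer 2). In both genes the groups were separate and heifer 4 was lowest. CKM, the muscle creatine kinase, was called with all libraries (log2 difference 0.50, adjusted p = 0.0448) and not without heifer 2 (adjusted p = 0.103). The same held for adenylate kinase 1 (AK1) and for GATM, which starts creatine synthesis (log2 differences 0.85 and 0.87).

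The energy sensing and antioxidant lists held few called genes. Of 29 energy-sensing genes 2 were higher and 1 lower (10.3%, against 9.79% of autosomal genes). None was called without heifer 2 by edgeR, with 5 at an unadjusted p below 0.05 and 3 called by DESeq2. NR4A1, a nuclear receptor induced by exercise, was at 378, 135, 356 and 236 CPM in bulls and 116, 103 and 60.3 CPM in heifers (log2 difference 1.59 ± 0.39 SE; adjusted p = 0.02, 0.0643 without heifer 2). It belongs with the immediate early genes, whose summed level was 147 to 659 CPM in bulls and 139 to 185 CPM in heifers 1, 3 and 4, and whose part in this difference was not tested. The other higher gene was ESRRA, a nuclear receptor of mitochondrial genes (log2 difference 0.73, adjusted p = 0.0466, 0.109 without heifer 2). PRKAA1, a catalytic subunit of the energy sensor AMPK, was at 24.4, 16.4, 19.97 and 12.0 CPM in bulls and 25.8, 36.8 and 30.0 CPM in heifers (adjusted p = 0.038, 0.0923 without heifer 2). Of 23 genes of oxygen binding and antioxidant defence 1, the peroxiredoxin PRDX2, was higher (4.35%), at 82.2, 81.0, 77.2 and 117 CPM in bulls and 57.4, 68.2 and 57.7 CPM in heifers (adjusted p = 0.0292). No gene of that list was called without heifer 2 by edgeR, with 6 at an unadjusted p below 0.05 and 2 called by DESeq2. PRDX5 was at 46.9, 34.9, 38.9 and 41.8 CPM and 32.0, 33.6 and 29.02 CPM (adjusted p = 0.0562).

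Beside the IVP calves, the AI heifers were the outermost group in the members called in both fits. In all 14 members lower and all 18 higher in AI bulls in both fits, the AI heifer mean was the most extreme of the 4 group means, a direction that the choice of these genes favours. On the log2 scale the IVP heifer mean lay nearer to the AI bull mean than to the AI heifer mean in 13 of the 14 and 17 of the 18, the exceptions being UCP3 and AKT1. Choosing genes by the gap between AI bulls and AI heifers favours this count too. Its share over all autosomal genes is not given here. Of the 14 lower genes, 7 were also called lower in IVP bulls than in IVP heifers (UCP3, IRS2, FOXO3, FBXO32, BNIP3, MAP1LC3B and GLUL). None of the 18 higher genes was called higher in IVP bulls (lowest adjusted p among those with a difference in that direction 0.0567, for GAMT). The IVP difference had the same sign in 12 of the 14 and 8 of the 18. The share of all autosomal genes called in IVP calves is not given here, so these counts have no background beside them. STBD1 was lower in IVP bulls than in IVP heifers (log2 difference -0.69 ± 0.22 SE; adjusted p = 0.0496). FBXO32 was at 41.3 ± 8.25 CPM in IVP bulls and 107 ± 43.5 CPM in IVP heifers (SD, n = 4 each), a log2 difference of -1.37 ± 0.29 (SE; adjusted p = 0.0127). PDK4 was at 44.6 ± 42.6 CPM in IVP bulls and 586 ± 105 CPM in IVP heifers, a log2 difference of -3.72 ± 0.80 (SE; adjusted p = 0.015). The oxidative phosphorylation genes had a median log2 difference of -0.03 in IVP calves, against 0.30 in AI calves.

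The difference between the origins was tested as an interaction, the AI log2 difference minus the IVP one. It was called in 396 autosomal genes (2.74%) and 23 members, and without heifer 2 in 56 genes (0.379%) and 6 members. Those 6 were IGFBP5, STBD1, PPP1R3C, SLC7A8, NR4A1 and, picked after its values were seen, NR4A3. For IGFBP5 the 2 sex differences stood 2.38 ± 0.35 apart on the log2 scale (SE; adjusted p = 0.00899, 0.0341 without heifer 2), with IVP bulls at 254 ± 77.7 CPM and IVP heifers at 324 ± 72.6 CPM. PPP1R3C gave 2.45 ± 0.42 (SE; adjusted p = 0.0124, 0.0402 without heifer 2) and SLC7A8 gave -3.33 ± 0.57 (SE; adjusted p = 0.0133, 0.0402 without heifer 2). In SLC7A8 the IVP heifers were at 75.2 ± 24.0 CPM and the IVP bulls at 52.3 ± 18.1 CPM (log2 difference -0.52 ± 0.39 SE; adjusted p = 0.38). Of the oxidative phosphorylation genes 1, the ADP/ATP carrier SLC25A4, passed this test with all libraries (0.80 ± 0.21, SE; adjusted p = 0.0478). With heifer 2 and bull 1 both left out edgeR called no autosomal gene for the interaction, where 2062 had an unadjusted p below 0.05 and DESeq2 called 350, and no member, where the figures were 111 and 29. Leaving out IVP bull 1 alone gave 975 autosomal genes and 55 members. Without AI bull 1 alone, 145 autosomal genes and 12 members were called.

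**Figure D4:**
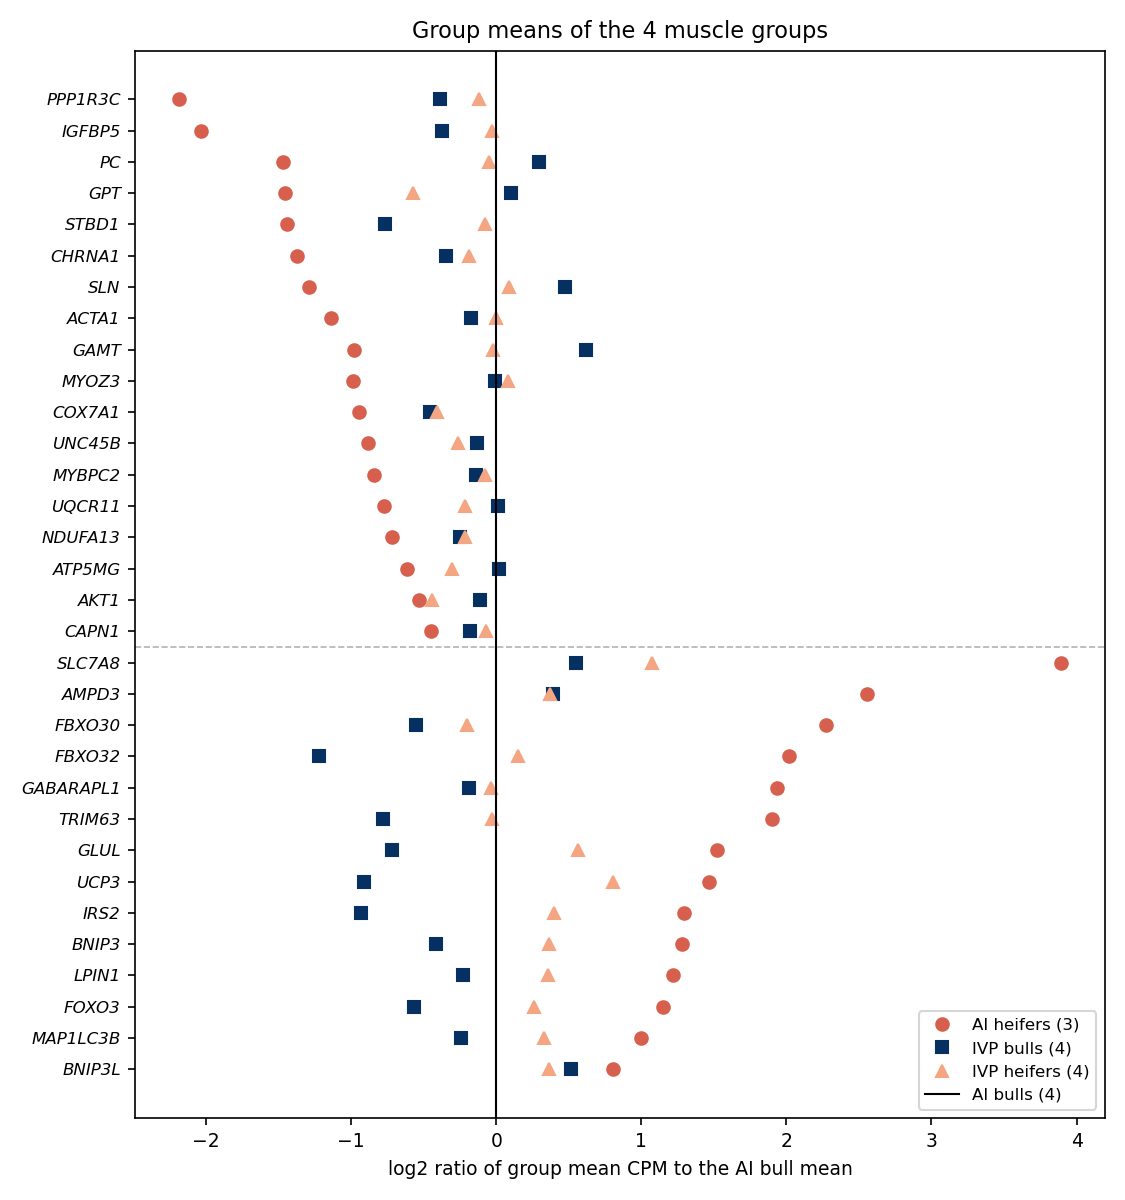
Log2 ratio of each group's mean CPM to the AI bull mean (vertical line at 0) for the 18 members higher and, under the dashed line, the 14 lower in AI bulls in both fits; symbols stand for AI heifers (3), IVP bulls (4) and IVP heifers (4). The AI heifer mean is the farthest of the 4 group means in all 32 genes, which the choice of these genes favours.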

How the data were processed

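Poly(A) RNA of muscle biopsies was made into stranded TruSeq libraries and read as paired 100-base reads on a NovaSeq instrument, per the labels' protocols. The submitters' processing notes name FastQC 0.11.9, Trimmomatic, STAR 2.7.0b, featureCounts and Subread 2.0.3, with no settings. Build, annotation, strand setting and the handling of shared reads: not given in the sources used here. The authors deposited whole-number values per Entrez gene, treated here as estimated counts: even numbers made up 58.6% of values from 2 to 29 in AI bull 1, 51.0 to 52.1% in AI bulls 2 to 4, 54.5 to 56.9% in AI heifers, 56.7 to 57.4% in IVP heifers, 52.5% in IVP bull 1 and 58.3 to 58.8% in IVP bulls 2 to 4. The AI bulls thus lay on both sides of the AI heifers. AI bull 1 was near IVP bulls 2 to 4, and IVP bull 1 was nearest to AI bulls 2 to 4. No label explains this pattern, and its part in the results was not tested. Rounding changed nothing.

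All 16 muscle libraries were fitted as 4 groups in edgeR 4.0.16 (R 4.3.3; TMM, filterByExpr, robust quasi-likelihood), as the series' design text names edgeR and a false discovery rate of 0.05, with Benjamini-Hochberg adjustment over all 15682 genes tested. Standard errors were computed from the test statistic. Chromosomes came from the RefSeq gene table of ARS-UCD2.0, where 31630 of 35092 genes (90.1%) had an entry; the other 3462 held 0.733% of muscle counts. The build being unknown, gene positions are left out. Named genes were, in each list, up to 2 per direction with the smallest adjusted p called with and without heifer 2 at a mean of at least 1 CPM, the 6 leading genes per direction, 12 genes fixed by name, and the 2 with the smallest p in lists with none. Genes named beyond this rule were chosen after their values were seen. Members, lists and tests were chosen with earlier results of these data known. Scripts were tested on simulated data. The alternatives were DESeq2 1.42.0, other scaling, no filter, age, the replicate number as a block, the AI libraries alone and leaving out each library. The liver table was not used here. A few genes that enter the counts are not reported here by name.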

Additional observations from a re-analysis of the deposited data

Results flagged for a closer look

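In 4 of the 48 named genes 1 AI bull lay far from the other 3 (gap to its neighbour divided by the range of the 4, Dixon's 95% limit), where chance would give about 1 in 20. Bull 4 was high for the embryonic myosin MYH3 (37.1 CPM) and the peroxiredoxin PRDX2 (117 CPM), bull 2 for the mitochondrial carrier UCP3 (606 CPM) and bull 3 for the amino acid transporter SLC7A8 (52.0 CPM).

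The sex difference was itself different between AI and IVP calves in 11 named genes, by edgeR's interaction test with all 16 muscle libraries. On the log2 scale the AI difference minus the IVP one was 2.99 for NR4A1, 2.45 for PPP1R3C, 2.38 for IGFBP5 and 2.13 for STBD1. It was 1.54 for CHRNA1, 1.31 for ACTA1, 1.07 for MYOZ3 and 0.551 for CAPN1. All of these were higher in AI bulls and had log2 differences below 0 in IVP calves. For NR4A1 the log2 difference was 1.59 in AI and -1.40 in IVP calves (edgeR adjusted p = 0.02 and 0.0326). The AI difference minus the IVP one was -3.33 for SLC7A8, -1.90 for FBXO30 and -1.77 for GABARAPL1. Of the 11, NR4A1, PPP1R3C, IGFBP5, STBD1 and SLC7A8 passed without AI heifer 2, and none passed without AI heifer 2 and AI bull 1 together.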

How the results depend on the processing

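Of the 28 named genes called with and without heifer 2, 25 were called under each of the 22 alternatives that changed 1 setting or left out 1 library. The exceptions were NDUFA13 and MYBPC2, not called without AI heifer 4, and UCP3, not called without AI heifer 4 or AI bull 4. Leaving out 1 library at a time gave 482 to 1628 autosomal genes called (249 to 926 higher, 231 to 702 lower), 29 to 91 members (16 to 66 higher, 13 to 27 lower), and for the interaction 56 to 975 autosomal genes and 6 to 55 members. The autosomal count fell by over 1.5 times without AI heifer 1 (744), heifer 2 (500), heifer 4 (482), bull 3 (870) or bull 4 (909). DESeq2 called 2146 autosomal genes, 1210 of them higher, and 123 members, 92 of them higher; for the interaction it called 1117 autosomal genes and 82 members. With no filter on low counts the interaction was called in 248 autosomal genes. In the 8 AI libraries alone 452 autosomal genes were lower. The log2 difference of citrate synthase (CS) was -0.017 without AI bull 1 and 0.33 without AI bull 4. The cause of these changes was not tested. Low counts kept 14 members out of the test.

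Same-numbered AI bulls and heifers had correlations of deviations of 0.123, -0.0541, 0.111 and -0.0185. These values cannot settle whether the replicate numbers pair the calves, since heifer 2 lay nearly at the mean of its mates. In both AI groups age fell or stayed level as the replicate number rose. With the replicate number as a block 1274 autosomal genes were called, 617 higher and 657 lower, and 73 members; the interaction was called in 405 autosomal genes and 27 members.

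Alternatives chosen after seeing the data left out libraries together. Without AI heifer 2 and AI bull 1, 560 autosomal genes were called (279 higher, 281 lower) and 37 members (20 higher, 17 lower), the interaction was called in 0 autosomal genes and 0 members, and the CS log2 difference was -0.041. NDUFA13, MYBPC2, UCP3, AMPD3 and CAPN1 were not called in that fit. In the AI libraries alone without heifer 2, 195 autosomal genes were called (103 higher, 92 lower) and 15 members (7 higher, 8 lower), among them TRIM63, FBXO32, GABARAPL1, LPIN1, SLC7A8, UCP3, PPP1R3C, STBD1, IGFBP5, SLN, CHRNA1, PC and GPT. The other 15 of the 28 named genes were not called in that fit: ATP5MG, NDUFA13, COX7A1 and UQCR11 of oxidative phosphorylation (adjusted p = 0.0703 to 0.101), MYOZ3, MYBPC2, ACTA1, UNC45B, IRS2, FOXO3, AKT1, FBXO30, AMPD3, GAMT and CAPN1 (0.0529 to 0.154).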
